A study of Mus musculus with 12 samples.

Results

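The nuclear genes of oxidative phosphorylation (OXPHOS) were described in sorted bone marrow natural killer (NK) cells, innate lymphocytes that kill infected or transformed cells. Members were the protein-coding genes whose mouse symbol begins with Ndufa, Ndufb, Ndufc, Ndufs, Ndufv, Uqcr, Cox4i, Cox5, Cox6, Cox7, Cox8 or Atp5, together with Sdha to Sdhd. A mean of at least 1 FPKM over the 12 libraries was required, and pseudogenes were left out. FPKM (fragments counted on a gene, scaled to its length and to the size of the library) is the deposited unit. Of 37991 genes in the table, 93 protein-coding genes matched these symbols and 86 reached that mean. The prefixes place 43 of them with complex I, 4 with complex II, 8 with complex III, 14 with complex IV and 17 with complex V, and 8 encode assembly factors rather than subunits. The 7 genes below the limit were Cox4i2, Cox7b2, Cox8b, Cox8c, Ndufa4l2, Ndufaf6 and Ndufs5. The members lay on 19 chromosomes, with 2 to 8 on each.

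The respiratory chain sits in the inner mitochondrial membrane. Complex I (NADH dehydrogenase) and complex II (succinate dehydrogenase) pass electrons to coenzyme Q, complex III passes them to cytochrome c, and complex IV (cytochrome c oxidase) passes them to oxygen. The proton gradient built by complexes I, III and IV drives ATP synthase, complex V. All complexes but complex II combine subunits encoded in the nucleus with subunits encoded in the mitochondrial genome, and lymphocytes use this pathway at rest and when activated.

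All cells were sorted as NK1.1+CD49b+ from the bone marrow of C57Bl/6 mice, whose ages the labels do not give. The Id2KO group was Ncr1Cre Id2F/F, the Tcf1KO group Ncr1Cre Tcf7F/F and the DKO group Ncr1Cre Id2F/F Tcf7F/F, each with 3 libraries. Id2 encodes an inhibitor of E proteins and Tcf7 encodes the transcription factor TCF-1. The 3 Ctrl libraries came from floxed mice without Cre, given as Id2F/F in one label and as Id2F/F or Id2F/F Tcf7F/F in another, so a comparison with Ctrl also holds the presence of Cre. Ncr1Cre is active in cells that express Ncr1 (NKp46), so deletion is limited to the NK cells and the other lymphoid cells that express it. The labels call the samples independent and name no animals, so each p-value rests on the spread of 3 samples a group, part of which may be technical. In bulk RNA, fewer cells of a type and less RNA per cell cannot be told apart.

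Library depth, recovered from the steps of the FPKM values, ran from 13975523 reads (Ctrl replicate 2) to 20208160 (Tcf1KO replicate 3). Members held 0.358% to 0.574% of the reads of a library, and genes of the mitochondrial genome held 25.9% to 35.2%. The targeted gene Id2 was at 124, 163 and 170 FPKM in the Ctrl libraries and at 17.8, 17.1 and 19.2 in Id2KO (-3.00 ± 0.16, adjusted p = 1.52e-05 by limma). The Tcf1KO libraries had 114, 102 and 126 FPKM of Id2 and the DKO libraries 48.8, 41.2 and 36.8, so Id2 was low in both groups labelled with its deletion, and less so in DKO (1.18 ± 0.16 against Id2KO, adjusted p = 0.0205). Tcf7 was at 37.7, 38.6 and 46.5 FPKM in Ctrl, 29.6, 37.3 and 38.0 in Tcf1KO, 53.9, 60.0 and 73.4 in DKO and 81.5, 92.1 and 80.9 in Id2KO. The DKO libraries thus lay wholly below Id2KO but wholly above Ctrl, and Tcf1KO overlapped Ctrl (38.0 against 37.7 FPKM). The gene total of Tcf7 therefore did not settle the labels Tcf1KO and DKO. Only gene totals were analysed, and a deleted exon need not show in them. Tcf1KO and DKO are therefore names of the libraries labelled so. All 10 NK markers examined, Ncr1 and Klrb1c (NK1.1) among them, were above 0 in all 12 libraries. Ctrl replicate 2, Id2KO replicate 3 and DKO replicate 3 fitted their groups least, with the lowest weights that limma estimated for libraries (0.590, 0.554 and 0.586). Results that rest on these 3 libraries are also given without them.

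The promoters of 5 members are shown first. Cox6a1 is the widely expressed partner of Cox6a2, the isoform gene that differed most, for which no promoter window was available. Motifs in the Cox6a1 window do not describe Cox6a2. Atp5g2 was the complex V gene with the smallest p in Id2KO against Ctrl. Cox6b1, Atp5e and Ndufs6 had the smallest p in their complexes in DKO against Id2KO. Ndufs6 was named after its values were seen. Each sequence runs 5′ to 3′ from 250 bases before to 50 bases after the RefSeq transcript start (GRCm38.p6), and capitals mark every match, on either strand, to the 6 motifs named after them.
Cox6a1 (chr5:115348909-115349208, minus strand): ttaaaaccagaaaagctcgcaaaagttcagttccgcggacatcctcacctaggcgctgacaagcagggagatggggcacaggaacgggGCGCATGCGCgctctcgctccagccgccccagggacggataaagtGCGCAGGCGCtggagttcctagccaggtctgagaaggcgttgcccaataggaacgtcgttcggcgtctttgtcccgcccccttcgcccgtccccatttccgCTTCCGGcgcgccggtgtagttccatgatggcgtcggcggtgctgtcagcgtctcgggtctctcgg
Atp5g2 (chr15:102670998-102671297, minus strand): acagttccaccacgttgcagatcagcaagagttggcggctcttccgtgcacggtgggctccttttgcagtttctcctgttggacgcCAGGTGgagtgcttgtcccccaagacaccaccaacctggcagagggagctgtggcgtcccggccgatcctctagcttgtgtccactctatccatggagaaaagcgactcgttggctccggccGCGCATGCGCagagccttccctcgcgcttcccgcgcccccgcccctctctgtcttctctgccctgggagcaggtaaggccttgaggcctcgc
Cox6b1 (chr7:30626065-30626364, minus strand): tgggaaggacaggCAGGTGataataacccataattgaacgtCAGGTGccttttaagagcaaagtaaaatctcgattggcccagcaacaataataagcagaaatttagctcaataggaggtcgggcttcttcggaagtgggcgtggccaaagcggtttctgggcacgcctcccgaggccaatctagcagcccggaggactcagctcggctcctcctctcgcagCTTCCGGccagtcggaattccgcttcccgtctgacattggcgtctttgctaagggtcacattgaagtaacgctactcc
Atp5e (chr2:174464052-174464351, minus strand): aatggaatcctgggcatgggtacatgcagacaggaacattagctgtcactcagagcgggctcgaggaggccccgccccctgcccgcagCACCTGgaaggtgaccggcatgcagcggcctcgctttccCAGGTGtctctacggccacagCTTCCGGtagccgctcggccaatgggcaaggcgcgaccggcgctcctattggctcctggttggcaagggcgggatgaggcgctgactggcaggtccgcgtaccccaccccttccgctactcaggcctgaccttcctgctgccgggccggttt
Ndufs6 (chr13:73328433-73328732, minus strand): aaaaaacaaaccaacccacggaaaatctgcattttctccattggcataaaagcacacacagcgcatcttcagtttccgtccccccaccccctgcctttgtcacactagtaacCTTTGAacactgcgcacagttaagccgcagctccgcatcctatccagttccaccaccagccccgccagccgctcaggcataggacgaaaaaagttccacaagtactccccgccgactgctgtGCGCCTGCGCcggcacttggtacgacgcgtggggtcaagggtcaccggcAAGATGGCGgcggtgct
In these windows the motif of NRF1, searched as GCGCA and GCGC with 1 base of any kind between them, began at -162 and -117 from the Cox6a1 start, at -42 in Atp5g2 and at -16 in Ndufs6. CCGGAAG, an ETS motif bound by GABPA, stood (here as its reverse complement) at -16 in Cox6a1, -28 in Cox6b1 and -102 in Atp5e, and AAGATGGCG, a YY1 motif, at 34 in Ndufs6. CAGGTG, an E-box that E proteins bind, stood at -164 in Atp5g2, at -237 and -209 in Cox6b1, and at -162 (as its reverse complement) and -123 in Atp5e. CTTTGA, a TCF-1 motif, stood at -138 in Ndufs6, and CAGCTG, another E-box, in none of the 5 windows. NRF1, GABPA and YY1 are factors known from the promoters of respiratory chain genes. Windows were available for 73 members (78 windows), and both strands were searched. The NRF1 motif was in 24.4% of member windows and 4.6% of all 32851 RefSeq windows of the same length, the ETS motif in 23.1% and 8.86%, and the YY1 motif in 10.3% and 1.4%. The E-boxes CAGCTG and CAGGTG were in 5.13% and 20.5% of member windows, against 16.3% and 20.2% of all. CTTTGA was in 10.3% and 16%. Letters of these motifs can overlap within a window, and a match is a description of the sequence only.

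Member levels spanned more than 2 orders of magnitude on the FPKM scale. Mean FPKM over the 12 libraries had a median of 8.58 for complex I, 17.7 for complex II, 15.5 for complex III, 43.7 for complex IV and 19.1 for complex V. The highest and lowest members by mean FPKM were Ndufa4 (96.0) and Ndufab1 (1.31) in complex I, Sdhd (43.1) and Sdhb (8.53) in complex II, and Uqcr10 (36.2) and Uqcr11 (8.53) in complex III. In complex IV they were Cox8a (198) and Cox7a1 (1.40), and in complex V Atp5mpl (86.6) and Atp5s (4.84). Ndufa4 is grouped with complex I by its symbol, but its protein is now counted with complex IV, and Ndufab1 encodes the mitochondrial acyl carrier protein. The gene lengths implied by the deposited values ranged from 0.0793 (Atp5l) to 3.79 (Ndufv1) times the exonic length of GENCODE M21, so these levels were also set per M21 exonic length. On that scale, in reads per kilobase of M21 exons scaled to library size, the complex medians were 13.4, 24.9, 22.2, 41.5 and 31.7 for complexes I to V. Complex I had the lowest median and complex IV the highest on both scales. The highest members changed with the scale, to Ndufa1 (63.7), Cox6a1 (215) and Atp5b (141) in complexes I, IV and V, and the lowest member of all became Atp5l (0.729). Differences between groups within a gene do not depend on its length, apart from the pseudocount.

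**Figure D1:**
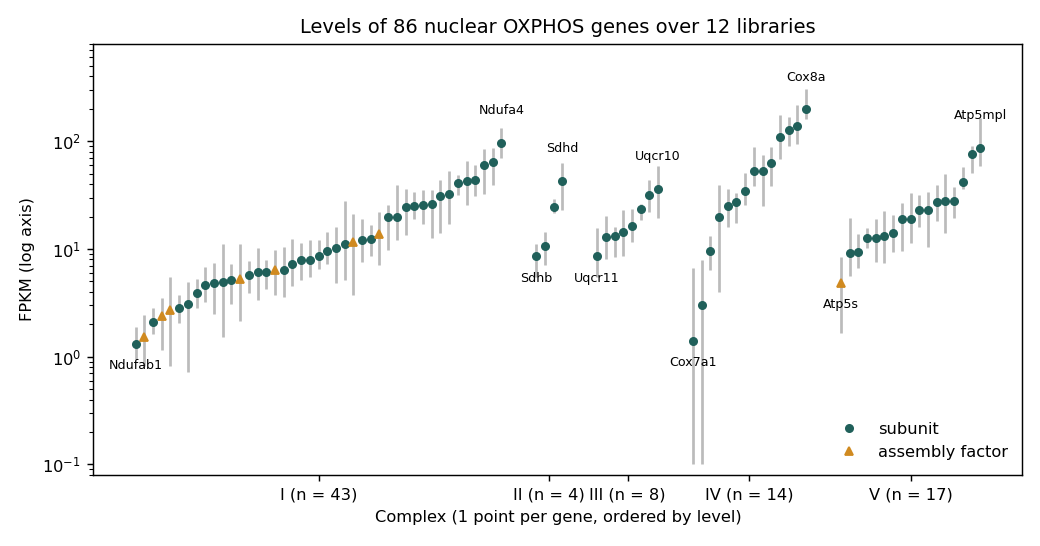
Mean FPKM over 12 libraries (log axis) of each of the 86 genes, ordered within its complex, with grey lines from the lowest to the highest library and lines that reach 0 drawn from 0.1. Complex IV holds both the highest gene, Cox8a at 198, and Cox7a1 at 1.40.

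The threshold on the mean fell between Ndufab1 (1.31) and Cox7a1 (1.40) on the inside and Ndufaf6 (0.925), Cox8b (0.882) and Ndufs5 (0.821) on the outside. Ndufs5 encodes an accessory subunit of complex I. Its implied length was 2.50 times its M21 exonic length, but per M21 exonic length its level was still only 2.06. It had 16 to 43 reads per library, and 15.5% of the 76-base windows of its transcripts also occur in BC002163. The tissue-restricted isoforms were mostly at the bottom. Cox8b, the heart and muscle form of subunit 8, was at 6.48 FPKM in Ctrl replicate 1 and at 1.75 or less in each other library. Cox4i2, Cox8c and Ndufa4l2 stayed at 1.06 FPKM or less in every library, and Cox7b2 was listed at 0 in all 12. Their ubiquitous partners Cox4i1 (subunit 4), Cox8a and Ndufa4 had means of 139, 198 and 96.0 FPKM.

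In Id2KO against Ctrl, 68 of the 86 members were higher (79.1%), against 49% of the 12384 genes tested, but no member passed the test. The median difference of the members was 0.27 on the log2(FPKM + 1) scale, and that of all genes tested was -0.01. By complex the medians were 0.15 (I), 0.12 (II), 0.30 (III), 0.35 (IV) and 0.37 (V). Higher members numbered 31 of 43, 3 of 4, 7 of 8, 12 of 14 and 15 of 17. Leaving out 1 library moved the medians between 0.092 (without Id2KO replicate 1) and 0.30 (without Id2KO replicate 3) for complex I, and between 0.060 (without Ctrl replicate 2) and 0.19 (without Ctrl replicate 1) for II. For III they lay between 0.16 (without Ctrl replicate 3) and 0.48 (without Ctrl replicate 2), for IV between 0.23 (without Id2KO replicate 2) and 0.40 (without Id2KO replicate 3), and for V between 0.23 (without Ctrl replicate 1) and 0.45 (without Id2KO replicate 3). The order of the complexes therefore depends on the libraries. With limma and Benjamini-Hochberg adjustment over all genes tested, 0.178% of genes were called (22 of 12384) and 0 members, with a lowest adjusted p of 0.117. At an unadjusted p under 0.05, 8 members were higher and 1 lower, where 5.53% and 4.17% of all genes were. limma's voom on the recovered reads also called 0 members and had 7 at that unadjusted p. The 3 Id2KO libraries all lay above the 3 Ctrl libraries for 13 members, against 7.11% of all genes, and none lay wholly below, against 6.75%.

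The difference was uneven over libraries. Summed over the members, the libraries of replicates 1 to 3 held 2098, 2576 and 2087 FPKM (Ctrl), 2736, 3143 and 2270 (Id2KO), 2090, 2080 and 2229 (Tcf1KO), and 2129, 2220 and 1847 (DKO). Ctrl replicate 2 was high for its group and Id2KO replicate 3 low, so the groups overlapped. Of the 86 members, 77 and 76 stood above their own 12-library mean in Id2KO replicates 1 and 2 and 44 in replicate 3, while Ctrl had 29, 63 and 31. Without Ctrl replicate 2, Id2KO replicate 3 and DKO replicate 3, 79 of 86 members were higher in Id2KO than in Ctrl, the median was 0.42 and 32 members had an unadjusted p under 0.05, still with 0 called (lowest adjusted p 0.0983 by limma). Leaving out 1 library at a time gave medians from 0.18 (Id2KO replicate 2) to 0.36 (Id2KO replicate 3), and between 6 and 18 members at that p, the most without Ctrl replicate 2. Shares of all genes were not counted in these fits with fewer libraries. A rise in the number of members at that p therefore cannot be read as particular to the members.

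**Figure D2:**
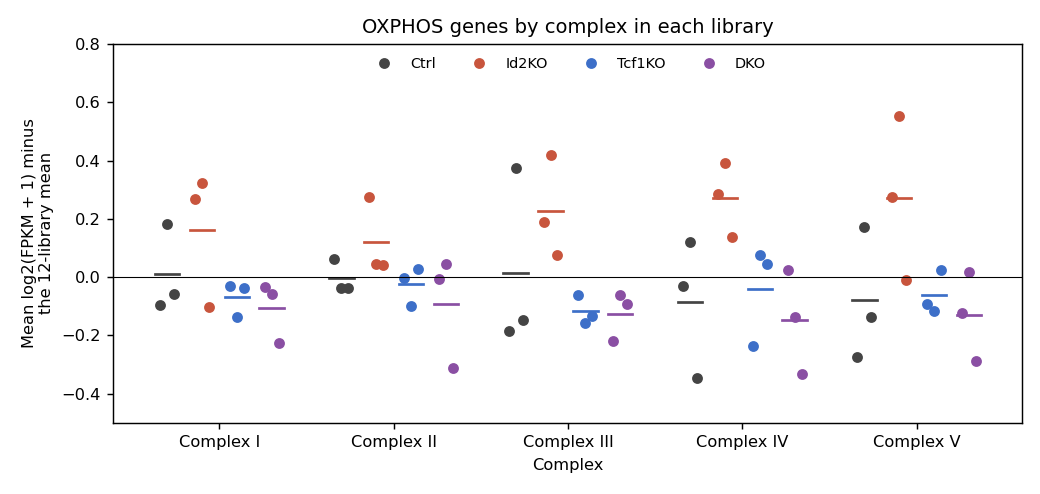
Mean over each complex's genes of log2(FPKM + 1) minus the gene's 12-library mean, with 1 point per library (replicates 1 to 3 from left to right) and bars at group means. Id2KO replicates 1 and 2 lie above 0 in every complex, and Ctrl replicate 2 is the highest Ctrl library in complexes I, III, IV and V.

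Marker genes of other cell types had other levels in Id2KO than in Ctrl. The 14 neutrophil and myeloid markers were all lower than in Ctrl (median -3.18), with summed levels of 906 to 3644 FPKM in Ctrl and 60.8 to 1040 in Id2KO, and so were the 12 erythroid markers (median -1.99, 773 to 4843 against 169 to 1933 FPKM). The 8 basophil and mast cell markers were also lower (median -2.10, 167 to 631 against 15.6 to 94.7 FPKM), although no gene of these 3 lists passed the test. Within its group, Id2KO replicate 3 was highest for all 3 lists, with 1040, 1933 and 94.7 FPKM. Id2KO replicates 1 and 2 had 60.8 and 191, 169 and 279, and 15.6 and 23.1 FPKM. Ctrl replicate 2 was the highest Ctrl library for neutrophil and erythroid markers (3644 and 4843 FPKM), but not for basophil markers (405 FPKM). In the DKO libraries the same 3 lists summed to 324 to 807, 453 to 2742 and 56.7 to 593 FPKM, and in Tcf1KO to 1174 to 4322, 1355 to 3575 and 51.1 to 752. Among their defining genes, Elane was at 0 in 4 libraries, Prtn3, Ctsg and Mmp8 in 1 each, Car1 in 2, Klf1 and Epor in 1 each, and no basophil marker in any. All 10 NK markers were lower in Id2KO than in Ctrl (median -0.38, 0 called, 1927 to 1987 against 983 to 1431 FPKM). Their sums were 1522 to 1854 FPKM for Tcf1KO and 1412 to 2097 for DKO. T cell markers (10) had a median of 0.39 and 1 called gene, Cd3d (1.39 ± 0.20, adjusted p = 0.0183 by limma), and their sums were 1023 to 1171 FPKM (Ctrl), 1331 to 1780 (Id2KO), 1427 to 1916 (Tcf1KO) and 1881 to 2329 (DKO). Of 8 B cell markers 3 were tested, with 0 called in Id2KO, and the list's sum (165 to 249.3 FPKM in Ctrl, 352 to 414 in Id2KO) was nearly all Ighm. Vpreb1, Igll1, Ms4a1, Pax5 and Cd79a were at 0 in 10, 8, 3, 2 and 1 libraries, and the sums in Tcf1KO and DKO were 152 to 207 and 252 to 282 FPKM. Of 3 plasma cell markers 2 were tested, both lower in Id2KO with 0 called, with sums of 6.84 to 9.51 (Ctrl), 6.74 to 8.75 (Id2KO), 8.53 to 11.2 (Tcf1KO) and 6.37 to 10.7 FPKM (DKO), Sdc1 being at 0 in 8 libraries and Jchain in 3. The part of these cell types in the OXPHOS values was not tested.

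Short transcripts were another feature that moved in the same comparison, and abundant ones moved less. The 2935 tested genes with M21 exons of up to 1739 bases in all had a median difference of 0.11 in Id2KO against Ctrl, and the 43 members among them 0.29. Over the 3096 tested genes with a mean of 8.81 FPKM or more the medians were 0.04 for all genes and 0.30 for the 59 members among them. Transcript length and level were not tested as causes.

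Within complex I, the core subunits, which carry the flavin, the iron-sulfur clusters and the quinone site, did not share a direction in Id2KO. Ndufv2, an iron-sulfur subunit of the NADH-binding module, was at 8.05, 7.32 and 9.01 FPKM in Ctrl and 14.5, 11.8 and 10.1 in Id2KO, with a difference of 0.52 ± 0.18 (log2, ± SE) and an adjusted p of 0.369 by limma. All 3 Id2KO libraries were above all 3 Ctrl libraries. Ndufs8, an iron-sulfur subunit, had 29.4 ± 4.99 FPKM in Ctrl and 39.9 ± 12.01 in Id2KO (0.40 ± 0.29), with overlap. Ndufs1, the largest core subunit, went the other way in the means (7.13 ± 1.04 to 5.58 ± 0.966, -0.31 ± 0.23), as did Ndufs7 (7.84 ± 2.62 to 5.82 ± 1.05, -0.34 ± 0.25). Ndufs3 (0.05 ± 0.22) and Ndufv1, the flavin subunit (-0.11 ± 0.22), had differences smaller than their standard errors. The lowest p among complex I members on the lower side was that of Ndufaf7, an arginine methyltransferase needed for assembly, at 7.37, 9.79 and 5.80 FPKM in Ctrl and 3.72, 6.55 and 4.27 in Id2KO (-0.57 ± 0.22, adjusted p = 0.411 by limma). Its libraries overlapped. Over the 8 assembly factors, 5 were higher and 3 lower in Id2KO.

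Complex II, which also serves the tricarboxylic acid cycle, had 3 of its 4 members higher in Id2KO than in Ctrl. Sdha, the flavoprotein that oxidises succinate, had means of 26.0 ± 3.27 (Ctrl), 25.2 ± 1.37 (Id2KO), 24.2 ± 1.10 (Tcf1KO) and 23.1 ± 1.77 FPKM (DKO). Sdhb, the iron-sulfur subunit, was at 7.83 ± 2.39, 8.86 ± 1.83, 8.15 ± 2.35 and 9.28 ± 2.04 FPKM in the same order. Sdhc, a membrane anchor, had the smallest p of the higher members in Id2KO, with 11.3, 11.3 and 9.33 FPKM in Ctrl and 14.4, 13.9 and 11.4 in Id2KO (0.29 ± 0.19). Its libraries did not overlap, by a narrow margin between 11.3 and 11.4 FPKM.

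In complex III the small subunits had higher means in Id2KO than in Ctrl, while Uqcrc2 had a lower one. Uqcrfs1, the Rieske iron-sulfur protein, was at 24.2 ± 1.03 FPKM in Ctrl and 25.4 ± 1.33 in Id2KO (0.07 ± 0.14), Uqcrc1 at 14.7 ± 1.63 and 15.6 ± 5.33 (0.03 ± 0.32), and Uqcrc2 at 19.3 ± 3.82 and 15.5 ± 4.29 (-0.31 ± 0.22). The small subunits Uqcr10, Uqcr11, Uqcrb, Uqcrh and Uqcrq had differences from 0.26 (Uqcrh) to 0.51 (Uqcr11), each with overlapping libraries. Whether small and core subunits differ from each other was not tested. Ctrl replicate 2 held the highest Ctrl value of all 5 small subunits, for example 58.9 FPKM of Uqcr10 against 33.3 and 19.5 in Ctrl replicates 1 and 3.

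Complex IV held the member that differed most. Cox6a2, the isoform of subunit 6A known from heart and skeletal muscle, was at 12.5, 4.02 and 7.55 FPKM in Ctrl and at 37.2, 35.2 and 24.4 in Id2KO. In Tcf1KO it was at 5.73, 5.15 and 13.8 FPKM and in DKO at 28.5, 39.3 and 22.6. The 6 libraries labelled with deleted Id2 all lay above the 6 others. The differences were 1.97 ± 0.41 in Id2KO against Ctrl (adjusted p = 0.117 by limma), 1.87 ± 0.41 in DKO against Ctrl (adjusted p = 0.125) and 1.84 ± 0.41 in DKO against Tcf1KO (adjusted p = 0.251), the first pair sharing the Ctrl libraries. In Tcf1KO against Ctrl the difference was 0.03 ± 0.41, and in DKO against Id2KO -0.11 ± 0.41. The interaction was -0.13 ± 0.57. None of these passed the threshold. Between 37 and 408 reads per library stood behind these values. The gene (ENSMUSG00000030785) spans chr7:128205435-128206387 on the minus strand, and 10.3% of its exonic bases overlap Itgad, an integrin gene that stood between 0.848 and 3.10 FPKM. Plasmacytoid dendritic cells are another bone marrow source of Cox6a2, and 6 of their markers, chosen after the values were seen, summed to 11.4 to 15.3 FPKM (Ctrl), 6.46 to 9.93 (Id2KO), 9.53 to 13.5 (Tcf1KO) and 7.62 to 10.5 (DKO). Of these markers 2 were tested, both lower in Id2KO than in Ctrl with 0 called, and Klk1 was at 0 in 7 libraries and Siglech in 1. The part of these cells in the Cox6a2 values was not tested.

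Cox6a1, the form of subunit 6A made in most tissues, stayed far above Cox6a2, with mean levels of 127 and 19.7 FPKM (215 and 19.0 per M21 exonic length). Its libraries were at 132, 167 and 90.1 FPKM (Ctrl), 150, 160 and 131 (Id2KO), 113, 113 and 120 (Tcf1KO) and 117, 122 and 105 (DKO), with 0.22 ± 0.19 in Id2KO against Ctrl. The Ctrl libraries spanned the range of the other groups.

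The other complex IV members had smaller differences in Id2KO. Cox4i1, a core-scaffold subunit, was at 121 ± 24.8 FPKM in Ctrl and 168 ± 43.3 in Id2KO (0.47 ± 0.22), Cox5a at 48.9 ± 4.42 and 66.8 ± 9.93 (0.43 ± 0.26), and Cox5b, which binds zinc, at 23.8 ± 5.03 and 31.1 ± 4.40 (0.38 ± 0.20). Cox5a did not overlap between the groups. Of the subunit 7A forms, Cox7a2 had 50.2 ± 7.35 and 64.1 ± 21.2 FPKM (0.31 ± 0.22), Cox7a2l, a supercomplex factor, 23.4 ± 6.03 and 30.2 ± 0.917 (0.38 ± 0.17), and the muscle form Cox7a1 0.626 ± 0.567 FPKM in Id2KO and 1.49 ± 1.47 in Ctrl. Cox7a1 and Cox6b2 (the testis form of subunit 6B) were each at 0 in at least 1 library, and their differences carried standard errors of 0.79 and 0.65. Cox6b2 had the smallest p of the higher complex IV members in Tcf1KO against Ctrl (0.65 ± 0.65), at 6.05, 4.28 and 0.222 FPKM in Ctrl and 1.55, 6.84 and 7.81 in Tcf1KO.

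**Figure D3:**
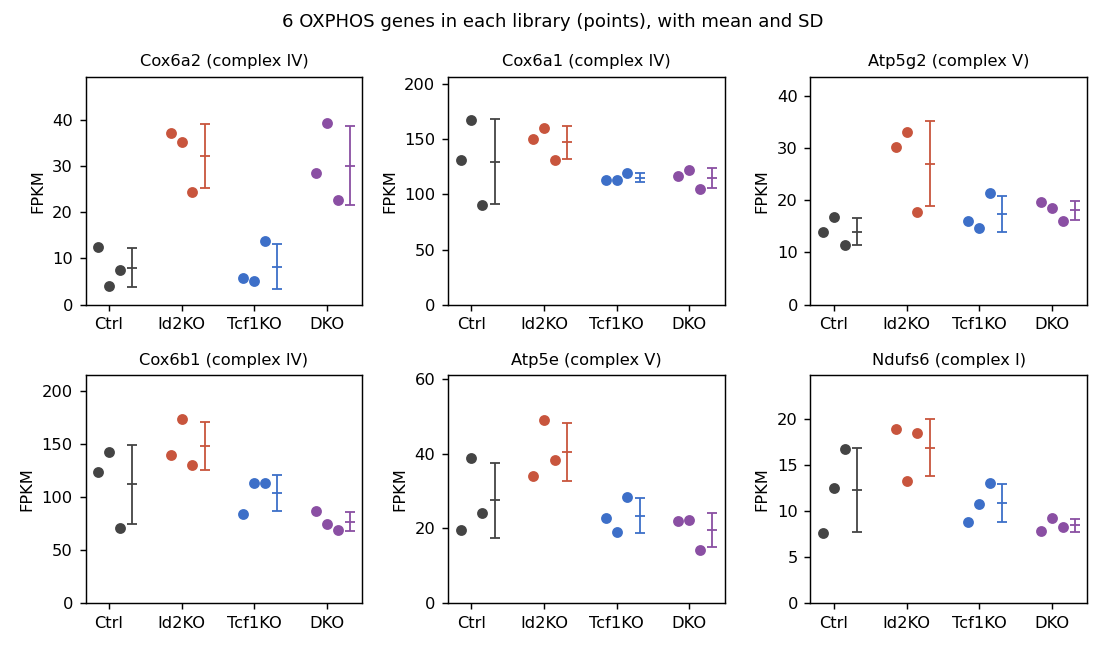
FPKM of 6 genes in each library (points, replicates 1 to 3 from left to right), with group mean and SD (n = 3) beside them. Cox6a2 lies at 22.6 or above in the Id2KO and DKO libraries and at 13.8 or below in the others, while Cox6b1, Atp5e and Ndufs6 are lower in DKO than in Id2KO.

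In complex V, Atp5g2 had the largest difference in Id2KO. Subunit c, which forms the rotating ring, is made from Atp5g1, Atp5g2 and Atp5g3. Atp5g2 was at 13.8, 16.7 and 11.5 FPKM in Ctrl and 30.2, 33.0 and 17.7 in Id2KO (0.87 ± 0.24, adjusted p = 0.267 by limma), with 15.9, 14.7 and 21.3 in Tcf1KO and 19.6, 18.5 and 16.04 in DKO. Its Ctrl and Id2KO libraries did not overlap, with Id2KO replicate 3 close above Ctrl replicate 2. Of its 76-base windows, 35.7% also occur in Gm10175 or Gm10231, so its value is uncertain. Atp5g1 was at 7.25 ± 0.578 FPKM in Ctrl and 11.5 ± 2.92 in Id2KO (0.58 ± 0.20), without overlap, and Atp5g3 at 17.2 ± 6.72 and 23.1 ± 4.70 (0.46 ± 0.31), with overlap. The genes of the catalytic head had smaller differences than Atp5g2. Atp5b, the catalytic beta subunit, was at 70.5 ± 16.9 FPKM in Ctrl and 82.5 ± 12.5 in Id2KO (0.24 ± 0.22), Atp5a1 (alpha) at 40.1 ± 4.32 and 49.96 ± 9.02 (0.30 ± 0.15), and Atp5c1 (the gamma shaft) at 22.3 ± 1.97 and 25.1 ± 4.42 (0.15 ± 0.22). Atp5mpl, a small accessory protein of ATP synthase, had the smallest p of the lower members at -0.06 ± 0.35, with Ctrl libraries at 61.7, 166 and 84.5 FPKM.

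In Tcf1KO against Ctrl, 38 members were higher and 48 lower (49.7% of all genes were higher), with a median of -0.04. Without Ctrl replicate 2, alone or with the other 2 libraries that fitted least, 51 were higher and the median was 0.034, so the direction turned. limma called 0 members and 0% of all genes, and 2 members had an unadjusted p under 0.05, where 4.8% of all genes did. voom had 0 at that p. Complex medians lay between -0.18 (III) and 0.02 (IV). The Tcf1KO libraries lay wholly above Ctrl for 1 member and wholly below for 4 (4.96% and 5.73% of all genes). The first was Atp5g1, at 8.15, 11.1 and 8.77 FPKM against 7.39, 7.75 and 6.62 in Ctrl (0.32 ± 0.20). Atp5k, a membrane subunit of ATP synthase, was among the second, at 17.0, 15.2 and 17.6 FPKM against 22.1, 22.4 and 24.8 in Ctrl (-0.45 ± 0.30). Ndufs4, an accessory subunit whose loss causes complex I deficiency, had the smallest p of the lower complex I members (28.0 ± 6.16 FPKM in Ctrl and 20.6 ± 1.04 in Tcf1KO, -0.40 ± 0.17, adjusted p = 0.999 by limma), and Ndufaf8, an assembly factor, that of the higher ones (11.2 ± 3.21 and 16.7 ± 2.73 FPKM, 0.56 ± 0.35). The remaining smallest-p members were Sdhd (0.13 ± 0.29) and Sdhc (-0.16 ± 0.19), Uqcrb (0.15 ± 0.20) and Uqcrc2 (-0.31 ± 0.22), and Cox7c (-0.15 ± 0.20). All had overlapping libraries. The complex III median of -0.18 became 0.10 without Ctrl replicate 2.

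In DKO against Ctrl, 25 members were higher and 61 lower (48.8% of all genes were higher), with a median of -0.13. This direction turned with the libraries: without Ctrl replicate 2, Id2KO replicate 3 and DKO replicate 3, 54 members were higher and the median was 0.059. Leaving out Ctrl replicate 2 alone left 37 higher and DKO replicate 3 alone 35. limma called 0 members and 0.145% of all genes, and 2 members had an unadjusted p under 0.05, where 9.44% of all genes did. voom called 0 and also had 2. Complex medians were -0.11 (I), -0.17 (II), -0.13 (III), -0.14 (IV) and -0.06 (V), and all 8 complex III members were lower. Without Ctrl replicate 2 the complex III median was 0.022. DKO lay wholly above Ctrl for 2 members, Cox6a2 and Atp5g1, and wholly below for 2, Ndufb2 and Ndufb7 (6.28% and 7.27% of all genes). Ndufb7, an accessory subunit of the complex I membrane arm, was at 6.60, 6.69 and 4.11 FPKM in Ctrl and 4.01, 3.28 and 1.51 in DKO (-0.82 ± 0.35, adjusted p = 0.508 by limma). The smallest p of the higher complex I members was that of the assembly factor Ndufaf5 (1.11 ± 0.458 FPKM in Ctrl, 1.79 ± 0.223 in DKO, 0.42 ± 0.21), and in complex V that of Atp5s (0.78 ± 0.45). In the other complexes these were Sdhb (0.23 ± 0.26) and, on the lower side, Sdha (-0.16 ± 0.13), Uqcrc2 (-0.28 ± 0.22), Cox6b1 (-0.49 ± 0.24) and Atp5e (-0.44 ± 0.27).

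**Figure D4:**
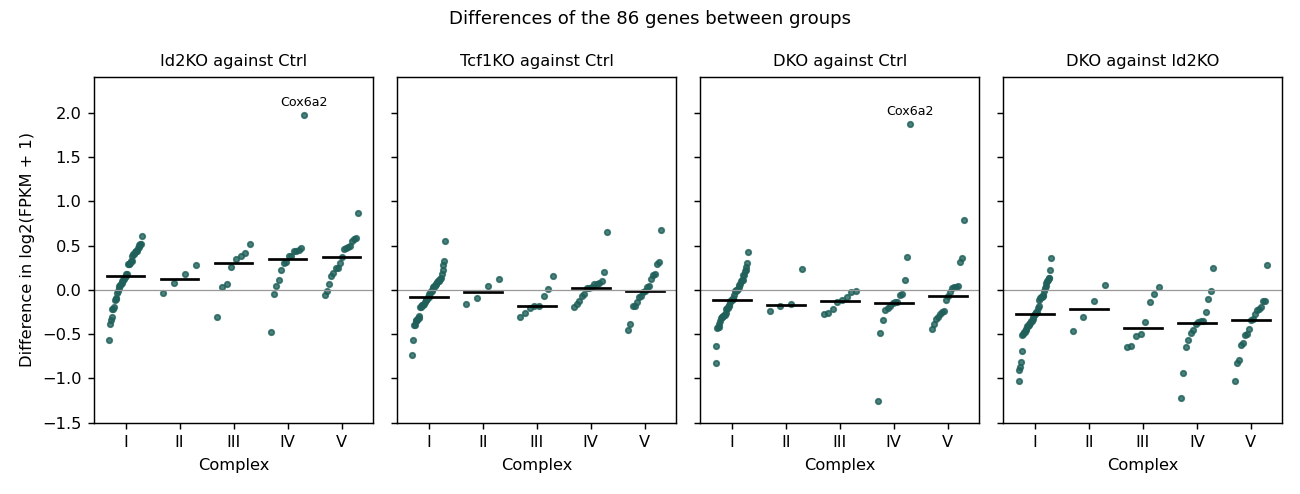
Difference in log2(FPKM + 1) of each of the 86 genes, by complex, in 4 comparisons, with bars at complex medians. Most points lie above 0 in Id2KO against Ctrl and below 0 in DKO against Id2KO, and Cox6a2 stands apart at 1.97 and 1.87; no point passed the test.

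In DKO against Id2KO, 73 of 86 members were lower, against 50.3% of all genes, with a median of -0.33, where that of all genes was -0.0035. The complex medians were -0.27 (I), -0.22 (II), -0.43 (III), -0.37 (IV) and -0.34 (V). limma called 0 members and 0.121% of all genes, with a lowest adjusted p of 0.191. At an unadjusted p under 0.05, 19 members were lower and 0 higher, where 6.08% and 4.83% of all genes were. voom called 0 and had 17. All 3 DKO libraries lay below all 3 Id2KO libraries for 25 members, against 8.32% of all genes, and above them for 0, against 6.34%. These values share the Id2KO libraries with the comparison against Ctrl, so the pair is not independent. Without the 3 libraries named above 11 members were higher, with a median of -0.43. Leaving out 1 library at a time put between 10 and 32 members at that unadjusted p, the fewest without DKO replicate 3 or Id2KO replicate 2 (11) and the most without Id2KO replicate 3. The shares of all genes in these fits were not counted.

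The marker lists differed between these groups too. Of the neutrophil and myeloid markers 14 of 14 were higher in DKO than in Id2KO (median 1.13), of the erythroid markers 11 of 12 (median 1.46) and of the basophil and mast cell markers 8 of 8 (median 1.75), with 0 called by limma. NK markers had a median of -0.06 (7 of 10 lower) and T cell markers 0.39 (7 of 10 higher), also with 0 called. Their part in the OXPHOS values was not tested.

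Of the members with the smallest p here, 4 are described, among them Ndufs6 and Atp5h, which were named after their values were seen. Cox6b1, the subunit that bridges complex IV dimers, was at 140, 174 and 130 FPKM in Id2KO and 86.6, 74.6 and 68.9 in DKO (-0.93 ± 0.24, adjusted p = 0.191 by limma). In Ctrl it was at 123, 142 and 70.6 FPKM and in Tcf1KO at 83.7, 114 and 113. Atp5e, the epsilon subunit of the ATP synthase stalk, was at 34.0, 49.1 and 38.3 FPKM in Id2KO and 22.1, 22.3 and 14.2 in DKO (-1.02 ± 0.27, adjusted p = 0.197), with 19.5, 38.9 and 24.1 in Ctrl. Ndufs6, a zinc-binding subunit of complex I, was at 18.9, 13.3 and 18.4 FPKM in Id2KO and 7.80, 9.20 and 8.30 in DKO (-0.91 ± 0.25, adjusted p = 0.217), with 7.60, 12.5 and 16.7 in Ctrl. Atp5h, a stator subunit, was at 33.9, 37.8 and 31.8 FPKM in Id2KO and 22.2, 24.6 and 19.4 in DKO (-0.62 ± 0.18, adjusted p = 0.230 by limma), with 20.96, 35.2 and 24.9 in Ctrl. Of the 76-base windows of Atp5h, 14.5% also occur in Gm10250. For all 4 the Id2KO and DKO libraries did not overlap, and the Ctrl libraries overlapped both groups for each of the 4. Usmg5, an ATP synthase component that the symbols of the rule do not cover, was at 72.3 ± 14.8 FPKM in Id2KO and 41.7 ± 3.56 in DKO (-0.76 ± 0.24).

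Between DKO and Tcf1KO, 32 members were higher (49.1% of all genes were) and the median was -0.07. Without DKO replicate 3, alone or with the other 2 such libraries, 42 were higher and the median was -0.0020. limma called 0 members and 0.0565% of all genes. An unadjusted p under 0.05 was reached by 2 members, against 6.73% of all genes, and by 2 with voom. These were Cox6a2 and Cox6b2, the latter lower at 1.21, 0 and 0.509 FPKM in DKO than in Tcf1KO. Libraries did not overlap for 5 higher and 3 lower members (5.74% and 6.9% of all genes).

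The interaction asks whether the DKO and Tcf1KO libraries differ by as much as the Id2KO and Ctrl libraries. It was negative for 69 of 86 members (49.8% of all genes), with a median of -0.29, and -0.42 and -0.36 in complexes IV and V. limma called 0 members and 0% of all genes. Its unadjusted p was under 0.05 for 7 members, against 5.94% of all genes, and for 6 with voom, and the lowest adjusted p of a member was 0.831. A difference in the response of these genes between the backgrounds was therefore not shown.

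The subunits encoded by the mitochondrial genome gave other medians than the nuclear ones. Of 13 such genes 8 were tested. Their median differences were 0.09 in Id2KO, -0.12 in Tcf1KO and 0.25 in DKO against Ctrl, and 0.13 in DKO against Id2KO, where all 8 were higher, with 0 called in each. mt-Nd3, a complex I subunit, had the highest difference of the 8 in both Id2KO (0.35 ± 0.26) and DKO (0.39 ± 0.26) against Ctrl. It also had the lowest level of the 8, at 3.84 to 9.74 FPKM and 26 to 59 reads per library. In the deposited table mt-Nd4l, mt-Co3 and mt-Atp8 are listed at 0 in all 12 libraries, mt-Atp6 in 10 and mt-Co2 in 9, so sums over these genes are incomplete. The summed FPKM ranged from 16248 to 21501 (Ctrl), 17534 to 21159 (Id2KO), 14688 to 18146 (Tcf1KO) and 18670 to 21088 (DKO). The mitochondrial rRNA genes took between 23.6% of reads (Id2KO replicate 2) and 32.4% (Id2KO replicate 3). When FPKM was scaled to the reads outside mitochondrial genes, 68 members were still higher in Id2KO than in Ctrl (median 0.27).

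**Figure D5:**
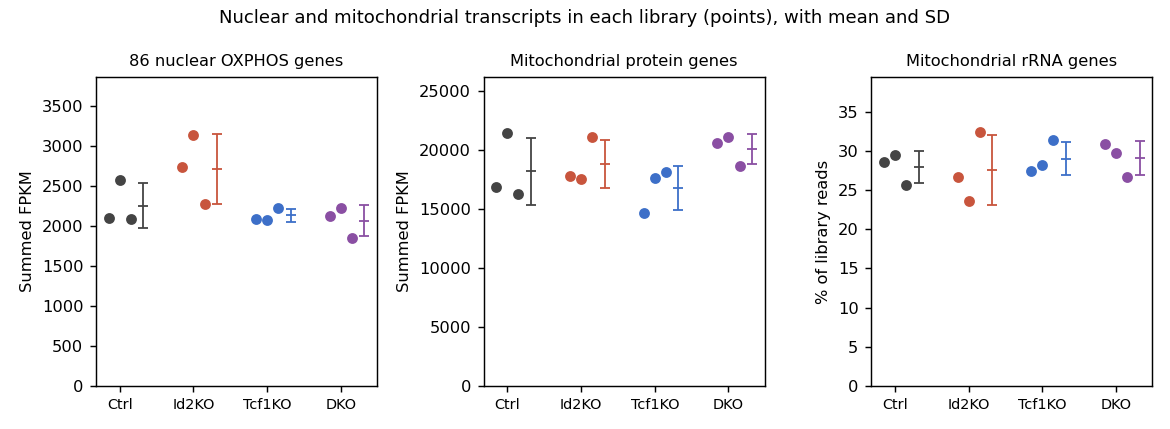
Summed FPKM of the 86 nuclear genes, summed FPKM of the mitochondrial protein genes, and the percentage of reads in mitochondrial rRNA genes, in each library (points) with group mean and SD (n = 3). Id2KO replicate 3 is the lowest Id2KO library for the nuclear genes (2270) and the highest for mitochondrial rRNA (32.4%).

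Genes around the chain gave mixed values. Cyc1 (cytochrome c1 of complex III) had 45.3 ± 3.05 FPKM (Ctrl), 54.5 ± 5.52 (Id2KO), 33.2 ± 11.7 (Tcf1KO) and 32.1 ± 5.42 (DKO) (-0.75 ± 0.22 in DKO against Id2KO, adjusted p = 0.233 by limma), and Cycs (cytochrome c) was also lower there (-0.41 ± 0.19). Of 31 tested assembly factors outside the rule, 21 were higher in Id2KO than in Ctrl (median 0.21, 0 called), led by Ecsit of complex I (1.45 ± 0.32, adjusted p = 0.143 by limma) and Cox10, a heme-synthesis enzyme for complex IV (0.90 ± 0.25). Ecsit was at 4.70, 4.55 and 2.51 FPKM in Ctrl and 8.41, 21.2 and 9.87 in Id2KO. Tcf1KO also lay wholly above Ctrl for Ecsit (7.88, 6.81 and 7.50 FPKM), and DKO overlapped Ctrl (4.67, 7.81 and 7.68 FPKM). Against Id2KO, 24 of the 31 were lower in DKO (median -0.29, 0 called), with the complex III factor Uqcc2 at -0.99 ± 0.25. Of 13 genes of the tricarboxylic acid cycle, 9 were higher in Id2KO than in Ctrl (median 0.07, 0 called). Idh3a, a subunit of isocitrate dehydrogenase, was at 6.41 ± 0.856 FPKM in Ctrl and 11.6 ± 1.55 in Id2KO (0.76 ± 0.16, adjusted p = 0.137), without overlap. Of the 6 tested genes of coenzyme Q synthesis, 3 were higher in Id2KO (median 0.07, 0 called) and 6 in DKO (median 0.37, 0 called), where Coq3, a methyltransferase, had 0.88 ± 0.33. In Tcf1KO against Ctrl 5 of the 6 were higher (median 0.12, 0 called), with differences of up to 1.12, so higher values were not particular to DKO. Of 11 tested regulators, 5 were higher in Id2KO (median -0.04, 0 called). Nrf1, whose protein's motif is marked above, was at 1.44 ± 0.342 FPKM in Ctrl and 0.962 ± 0.168 in Id2KO (-0.31 ± 0.20), and the coactivator gene Ppargc1b was higher in DKO than in Id2KO (0.86 ± 0.29, adjusted p = 0.289).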

How the data were processed

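RNA was sequenced from 12 samples of sorted mouse bone marrow NK cells (4 groups of 3). The deposited values are FPKM, made by the authors with unstated gene lengths. Per the submitters' processing notes the tools were HTSeq 0.6.1, TopHat2 2.1.0, Trimmomatic 0.33 and edgeR (no version), and the build was mm10. Per the labels' protocols, libraries had 76 cycles. GENCODE M21 (GRCm38) gave symbols, gene types and exons for 32919 of the 37991 gene IDs. Whole reads could be recovered from the FPKM steps (tolerance 0.01) for all 23707 genes above 0; only voom, the depths and the shares of reads use them.

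All genes with at least 1 FPKM in 3 or more libraries (12384, with all 86 members) entered 1 limma 3.58.1 fit of log2(FPKM + 1) in R 4.3.3, with group as the term, a variance trend and two-sided tests. P-values were adjusted by Benjamini-Hochberg over all genes of a comparison, with a threshold of 0.05. Differences carry ± SE from that fit, on a scale that understates low genes; FPKM carry ± SD (n = 3). The genes named by rule were the highest and lowest member of each complex, the smallest p per complex and direction against Ctrl, core subunits, isoform groups, genes beside the mean limit, and up to 2 per pathway list and comparison. Others were named after their values were seen. A core subunit named by this rule and a marker are not reported here. Members, lists and tests were chosen with earlier results of these data known. RefSeq promoter windows (GRCm38.p6) were searched for motifs.

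Alternatives were other pseudocounts (0.1, 0.5), filters and scalings, variance without trend or robust, array weights, the replicate block, fits of only the groups compared, members at 5 FPKM or more, members without assembly factors, Ndufa4 counted in complex IV, and leaving out each library. Chosen after seeing the data were voom, library sizes without mitochondrial genes, and leaving out 3 libraries. Shares of all genes are those of the main limma fit of all 12 libraries and were not counted in the alternatives. The model code was tested on simulated data, with 200 of 12384 genes changed in Id2KO against Ctrl in each of 10 runs. It called 35.5% of genes changed by a log2 difference of 1, 75.5% of those by 2 and 89.1% of those by 3. There were 5.7 false calls per run. Differences as small as the member medians were not simulated, so 0 called does not show that no member changed. Tables were made with Python 3.11.15, pandas 2.3.3 and numpy 2.4.6.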

Additional observations from a re-analysis of the deposited data

How the results depend on the processing

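Limits first: 3 libraries a group limit the precision, gene totals can mix reads of overlapping genes and near-identical copies, and Ctrl replicate 2, Id2KO replicate 3 and DKO replicate 3 carry much of the spread. Under the 27 alternatives in which calls were counted (26 for the interaction), 0 members were called, with a lowest adjusted p of 0.0616. Over all 30 alternatives, 1696 of 1717 alternative values moved by less than 1 SD between replicates or stayed on their side of the threshold. Of the other 21, the cause was not tested beyond the fewer samples. The 1696 are no measure of stability. That SD was 0.15 for all members and 0.13 (complex II) to 0.20 (complex V) by complex, as large as many medians. A turned direction could therefore count among them, as in Tcf1KO against Ctrl (-0.04 for all members, 0.034 at the highest). Counts of 0 called could hardly change either.

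Without those 3 libraries, the median difference in Id2KO against Ctrl was 0.42 for all members, 0.40 for complex I, 0.50 for III and 0.62 for V. In Tcf1KO against Ctrl it was 0.10 for complex III. In DKO against Ctrl it was 0.059 for all members, -0.028 for complex II, 0.071 for III and 0.12 for IV, so these directions turned except that of II. Medians that moved by less than 1 SD between replicates are not listed here, and they too could turn. For complexes I and V in DKO against Ctrl the highest medians over the alternatives were 0.033 and 0.056. The interaction was -0.45 for all members, -0.36 for complex I, -0.58 for III and -0.75 for V.

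Leaving out 1 library at a time moved complex III in Tcf1KO against Ctrl between -0.26 and 0.10 (Ctrl replicate 2) and complex II in DKO against Ctrl between -0.20 and -0.038 (DKO replicate 3), and complex III there between -0.26 and 0.022 (Ctrl replicate 2). In DKO against Id2KO it moved complex I between -0.45 and -0.21 and V between -0.61 and -0.22 (Id2KO replicate 3), and III between -0.55 and -0.23 (DKO replicate 1). The interaction moved between -0.60 and -0.15 for complex III (Ctrl replicates 1 and 2) and between -0.48 and -0.22 for IV (Id2KO replicate 2).

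With the replicate number as a block, 0 members were called and the medians were unchanged (0.27 in Id2KO against Ctrl, -0.33 in DKO against Id2KO). The deviations of same-numbered libraries correlated between -0.14 and 0.27, over 0.1 in 6 of 18 pairs. The labels give no pairing and not every pair was over 0.1, so the numbers were not used as pairs. That 9 of 12 libraries correlated best with their own number is a hint from the data that they may share more. These 9 were the Ctrl, Tcf1KO and DKO libraries. No Id2KO library correlated best with its own number, and same-numbered pairs with Id2KO reached at most 0.03. Pairing is not settled.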
